A study of Chrysanthemum x morifolium with 12 samples.

Results

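Of the 176026 probes on a custom chrysanthemum array, 133 had a signal that was raised in the white petals of Feeling White (FW) and lower, at nearly the same level as each other, in both kinds of green petals. These probes were chosen by their petal signals. The mean in FW petals had to be more than 5-fold above that in petals of Feeling Green (FG) and above that in petals of Feeling Green Dark (FGD), and the FG and FGD means had to be less than 1 apart on the log2 scale. The mean background-corrected signal over all arrays had to be at least 100, which 70270 probes passed, and the 133 were taken from these. This cutoff is the 1 step in which leaf arrays took part: 12 of the 133 probes had a mean below 100 over the 9 petal arrays and entered through their leaf signal. Each probe stands for 1 contig of expressed sequence tags. Several contigs can belong to the same gene, so the 133 probes are not 133 independent genes.

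Chrysanthemum (*Chrysanthemum morifolium*) cultivars are propagated as cuttings. A bud sport is a shoot that differs from its parent plant through a somatic change and is then kept as a cultivar. FW and FGD are both bud sports of FG, so the white petals differ from the green ones within 1 clonal lineage. RNA was taken from the ray petals of all 3 cultivars at a middle stage of flower development and from mature FG leaves, with 3 biological replicates for each of the 4 groups. The plants were grown in a greenhouse under natural daylight, and no treatment was applied. All 3 cultivars share 1 genetic background, and the leaves came from FG alone, so no leaf of FW or FGD was compared with its petals.

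Chlorophylls (Chls) are made in plastids from glutamate through a series of porphyrin intermediates. In most flowers the young petal is green, and Chl is lost while the petal opens and its plastids change from chloroplasts to other forms. Leaves keep the pathway active because Chl is needed for photosynthesis. The study measured more Chl in FGD petals than in FG petals at the late flower stage, and the probes were chosen to be alike in both. A transcript that is high in white petals and equally low in both green petals runs opposite to Chl between white and green petals, and not between the green ones. Its level in the leaf, the organ with the most Chl, entered the choice of the probes through the signal cutoff alone, and counts of leaf calls are therefore also given with that cutoff taken over the petal arrays.

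Levels below are log2 signals relative to the 75th percentile of the array, so that 0 is the signal below which 75% of the probes of that array lie. The brightness of a probe depends on its sequence as well as on the amount of RNA, so levels are compared between samples for the same probe and not between probes. With petals or leaves taken whole, fewer cells of a type and less RNA per cell cannot be told apart. The number of arrays, 3 for each group, limits the precision. Of the probes, 63.2% to 65.2% were well above background on a leaf array and 65.6% to 69.6% on a petal array, and no spot was saturated. The leaf arrays were dimmer, with 75th percentiles of 188 to 209 against 308 to 347 on petal arrays. The faintest level that counted as well above background was −4.74 to −4.52 on leaf arrays and −5.39 to −4.97 on petal arrays. The arrays lay on 3 slides. Slide 1 held FG petals 1 to 3 and FW petal 1, slide 2 held FW petals 2 and 3 and FGD petals 1 and 2, and slide 3 held FGD petal 3 and FG leaves 1 to 3. FG petals and FG leaves share no slide. The tissue labels were checked with the Chl biosynthesis probes: of the 16 that passed the signal cutoff, 12 were higher and 1 was lower in FG leaves than in FG petals (adjusted p under 0.05, limma with Benjamini-Hochberg adjustment), where 33.8% of all probes were higher. No petal marker was paired with a probe in the sources used here.

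The probe sequences and gene names of the 133 probes were not given in the sources used here. The study's tables pair 90 probes with gene names, and none of the 133 is among them. The sequences that could be shown are the RT-qPCR primers of the transcripts of *MYB113-like* and *OFP6*, which the study lists as higher in FW petals in its array data. They are shown because 1 probe of each, PD0028_044537 and PD0028_011900, met the petal limits and missed the signal cutoff alone, and their values are given at the end. MYB113 is a transcription factor of the R2R3-MYB family that in *Arabidopsis thaliana* activates anthocyanin synthesis. OFP6 belongs to the OVATE family of transcriptional repressors.
*MYB113-like* forward: ggcgaaggcaaatggcatctt
*MYB113-like* reverse: gaagcttgtgaagccttagaatgagatc
*OFP6* forward: gggattattatcaaggcttttactgaga
*OFP6* reverse: ggtgccttaagtcattttgaacatgga

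Across the 133 probes, the FW mean lay between 2.34 and 5.40 above the higher of the FG and FGD means on the log2 scale, with a median of 2.87. More than 8-fold was reached by 57 probes, more than 16-fold by 15, and more than 32-fold by 2. These counts use the levels as measured, also for the probes whose green petals give only a bound. The median level of the list was 1.66, 1.32, and 1.45 on the 3 FW arrays. It was −1.76, −1.97, and −1.36 on the 3 FG petal arrays and −1.98, −1.88, and −1.86 on the 3 FGD petal arrays. The green petals thus sat together, as the choice of the probes required: FG was above FGD for 67 probes and FGD above FG for 66, and 89 probes had means less than 0.5 apart. These petal differences chose the probes and are given as a description, with no test.

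The 3 FW arrays agreed closely for most probes. The SD among them was at most 0.5 for 103 of the 133 probes and over 1 for 4. FW petal 1 gave the highest of the 3 values for 90 probes, and its median deviation from the FW mean was 0.24, against −0.18 and −0.01 for FW petals 2 and 3. FW petal 1 is the FW array on slide 1, and the part of the slide in this shift was not tested. On slide 1, FW petal 1 was more than 5-fold above the FG petal mean for 126 of the 133 probes, with a median difference of 3.35 (log2). On slide 2, FW petals 2 and 3 were more than 5-fold above FGD petals 1 and 2 for 124 probes, with a median of 3.11. Over all 70270 probes these shares were 0.636% and 1.37%, and nothing is read from the gap, because the same arrays chose the probes.

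All 3 FW arrays lay above all 6 green petal arrays for 130 of the 133 probes. Of all probes tested, 28.2% did so, and again the petal values chose the list. The other 3 probes owe their place to some of the FW arrays. PD0028_114252 was at −7.39, 2.36, and −6.98 in FW petals. Its high value is a spot that the scanner software marked as an outlier, and it was near background in the rest, with FW petals measured on 1 array and both green petals and the leaves on none. PD0028_008773 was at −4.19, 1.58, and −0.25 in FW petals, between −4.81 and −3.92 in FG petals, and between −3.57 and −3.16 in FGD petals. Its second FW value is also an outlier spot, and its first lies among the green values. PD0028_029829 was at −2.76 in FW petal 1 and at 1.86 and 1.94 in FW petals 2 and 3, while FG petals were between −3.20 and −2.49. For this probe the FW array on slide 1 was at the green level and both FW arrays on slide 2 were high, so that within slide 1 the difference was 0.13 and within slide 2 it was 4.21. On slide 1, PD0028_008773 differed by 0.13 as well, and PD0028_114252 was lower in FW by 0.31. Without FW petal 1 the difference was 4.07 for PD0028_008773 and 4.15 for PD0028_029829. Without FW petal 2 it was 1.19 and 1.84, and without FW petal 3 it was 1.80 for PD0028_029829, all under the fold limit.

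PD0028_147871 had the largest petal difference of the list. It was at 1.68, 1.79, and 1.06 in FW petals, at −3.34, −2.93, and −5.40 in FG petals, and at −3.74, −6.23, and −3.82 in FGD petals. The lowest FW value was far above the highest green one, although single FG and FGD arrays lay about 2 log2 units below the rest of their group. The FW mean was 42.3-fold above the higher green mean. Without FG petal 3 the difference fell from 5.40 to 4.65 (log2, 25.1-fold), less than that of PD0028_132048, so the first rank rests on that array. Its place in the list does so too, because without FG petal 3 the FG and FGD means are more than 1 apart. PD0028_132048 came next, with an FW mean 5.32 (log2) above the higher green mean and with FW petals between −0.16 and 0.71, FG petals between −5.90 and −4.90, and FGD petals between −5.51 and −4.17. In the green petals this probe was well above background on only 1 array of each group, so the difference rests in part on dim values.

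Of the next 6 probes by petal difference, 5 lay between 23.7-fold and 26.3-fold, and for the other, PD0028_040710, only a bound can be given. PD0028_096111 was at 1.73, 1.21, and 1.32 in FW petals and between −4.13 and −2.77 on the 6 green arrays. PD0028_151502 was at 3.31, 1.81, and 2.15 in FW petals, with the slide 1 array the highest, and between −3.02 and −1.93 in green petals. PD0028_040636 had nearly the same value on each FW array, 2.09, 2.01, and 1.97, against −3.37 to −2.36 in green petals. For PD0028_124490 the FW values were 5.16, 5.18, and 5.15 and the green values ran from −0.24 to 0.75. The FW arrays of these last 2 probes, from different slides, were closer together than the arrays of either green group. PD0028_091616 was at 0.04, 0.49, and 0.25 in FW petals and between −5.36 and −3.94 in green petals, with 1 of 3 FG petal arrays above background. PD0028_040710 was at −1.29, −2.53, and −2.82 in FW petals. No FG or FGD array measured it well above background, and the FW mean was at least 7.75-fold above the higher green group.

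The 5 probes with the brightest signal in FW petals were also bright in green petals. PD0028_120233 was at 7.40, 7.01, and 7.36 in FW petals, between 3.85 and 4.15 in FG petals, and between 4.03 and 4.72 in FGD petals, a difference of 7.30-fold. PD0028_085970 was at 7.55, 6.84, and 6.98 in FW petals and between 4.07 and 4.84 in green petals (5.66-fold). PD0028_107946 (7.91-fold) and PD0028_084589 (9.73-fold) had the same kind of profile. PD0028_076032 was at 6.46, 6.48, and 6.46 in FW petals and between 1.43 and 2.27 in green petals, 21.6-fold. For these probes the green petals held a readily measured signal, and the FW petals held more of it.

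At the edges of the choice, values passed smoothly from inside to outside. The probes just inside the fold limit were PD0028_040553 (2.34 above the higher green mean, log2), PD0028_081451 (2.36), and PD0028_038855 (2.37). Those just outside were PD0028_020152 (2.32), PD0028_185904 (2.31), and PD0028_154434 (2.31). At the limit on the green petals, PD0028_101096 (means 1.00 apart), PD0028_115607 (0.99), and PD0028_021877 (0.99) were inside. PD0028_109577 (1.01), PD0028_000239 (1.01), and PD0028_079375 (1.05) were outside. PD0028_109577 shows how close the limit is. Its FW mean of 0.45 was 4.19 above the higher green mean, more than in most of the 133, and its leaf mean was 1.98. In all, 222 probes met both fold limits and 89 of them were left out by the limit on the green petals, 74 with FG above FGD and 15 with FGD above FG.

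The level in FG leaves asked whether the 133 probes are low in green tissue in general. They were not alike in this. Against FG petals, 32 probes (24.1%) were higher in FG leaves and 53 (39.8%) were lower, at a fold over 5 and an adjusted p under 0.05 in limma. The other 48 met neither condition. Of all 70270 probes, 6.82% were higher and 7.06% lower by the same call. Both sides of this comparison touched the choice of the probes, the FG petal arrays through the petal limits and the leaf arrays through the signal cutoff. The median difference of the list was −1.10 (log2), against −0.11 over all probes. It was −0.54 after normexp background correction and 0.00 with signals under 100 set to 100, settings that are described below.

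Probes that were dim in all petals could pass the cutoff only by being bright in leaves. All 12 probes that entered through the leaf arrays were called higher in leaves than in FG petals, and 11 of them were called higher than in FW petals. With the mean signal of at least 100 taken over the 9 petal arrays, 70925 probes passed and 131 met the petal limits, 121 of them among the 133. This alternative was chosen after seeing the data. Of the 131 probes, 21 were higher in leaves than in FG petals (of all probes that passed, 4.68%) and 54 were lower (41.2%, against 7.47%). Against FGD petals, 22 were higher (16.8%, against 4.84%) and 52 lower (39.7%, against 7.63%). Against FW petals, 3 were higher (2.29%, against 7.83%) and 90 lower (68.7%, against 7.97%). The median difference from FG petals was then −1.63, against −0.16 over all probes. The lists thus differed mainly in the higher calls.

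FGD petals gave a similar count. Against them, 33 probes were higher in FG leaves (24.8%, against 6.99% of all probes) and 51 were lower (38.3%, against 7.16%). All 32 probes that were higher than FG petals were also higher than FGD petals, and 50 were lower than both. These comparisons share the leaf arrays and the green petals were chosen to be alike, so the second is not separate evidence. Against FW petals, where the choice of the probes fixed a high level, 84 probes were lower in FG leaves (63.2%, against 7.51%) and 14 were higher (10.5%, against 10.1% of all probes). The 14 were all among the 32 that exceeded FG petals, a nesting that the choice of the probes fixed. On slide 3, which held FGD petal 3 and the leaves, 35 of the 133 probes were more than 5-fold higher in the leaf mean (all probes, 7.24%) and 47 more than 5-fold lower (7.21%).

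The balance of higher and lower calls also changed with the treatment of low signals. For 35 of the 133 probes no FG leaf array was well above background, as for 1.47% of all probes. No FG petal array was so for 8 (all probes, 0.287%) and no FGD petal array for 7 (0.256%), while every probe was measured on at least 1 FW array (all probes below background on each FW array, 0.508%). The petal values chose the list, so nothing is read from these petal shares. Such a group gives only a bound on a fold. For it, the dim group was given, on each array, the faintest level that still counted as well above background, or the probe's own level where that was higher. The limma calls and p values use the levels as measured and not this bound. Of the 53 probes called lower than FG petals, 33 had no leaf array above background, and for 22 of the 33 the bound still exceeded 5-fold. After normexp background correction the calls were 30 higher (all probes, 4.98%) and 24 lower (4.28%), and with signals under 100 set to 100 they were 27 higher (6.30%) and 18 lower (4.12%). Lower calls outnumbered higher ones with the scanner's background-corrected signal and not under these settings, and the cause was not tested. With the slide as a block there were 36 higher (7.34%) and 43 lower (7.39%) calls.

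By group, the 32 probes that were higher in leaves had a median level of −0.01 in white petals, −3.20 and −3.08 in the green petals of FG and FGD, and 1.43 in leaves. For the 53 that were lower, the medians were 2.83, −0.11, −0.34, and −5.40 in the same order. For the other 48 they were 1.28, −2.03, −2.05, and −2.20, so that leaves and green petals lay together there. The height of FW petals above the higher green mean was alike in the 3 classes, with medians of 2.90, 2.88, and 2.81. This height chose the probes, so nothing is read from the likeness. The 14 probes in which leaves exceeded even FW petals had medians of −2.27 in white petals, −5.81 and −5.77 in the petals of FG and FGD, and 2.51 in leaves, and 7 of them were not well above background in FG petals. As given above, 11 of the 14 entered through the leaf arrays.

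The probes higher in FG leaves than in FG petals reached very large differences. In 25 of the 32 both sides were measured above background, and in 7 the FG petal side is only a bound. On all 3 FG petal arrays 22 of the 32 were above background. The differences ran from 2.92 to 10.36 (log2), with a median of 4.46 and adjusted p values (limma) of 5.59e-06 or less. For the 12 probes that entered through the leaf arrays, the choice itself required a high leaf signal. The range, the median, and the p limit include these 12, and for them they are a description with no test. All 32 were well above background on all 3 leaf arrays. PD0028_132048 was at 4.75, 5.04, and 4.92 in leaves, above its FW values of −0.16 to 0.71 and far above green petals. Its leaf level exceeded that of FG petals by 10.36 ± 0.36 (SE, adjusted p = 1.31e-09, limma) and that of FW petals by 4.57 ± 0.36. With 1 of 3 FG petal arrays above background, the first of these differences rests in part on dim values. The order for this probe was therefore leaf, then white petal, then green petal, with no overlap between these 3 classes of arrays.

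PD0028_147871, the probe with the largest petal difference, followed the same order. Leaves were at 5.36, 4.98, and 5.06, which was 9.02 ± 0.72 above FG petals (adjusted p = 7.08e-07, limma) and 3.62 ± 0.72 above FW petals (adjusted p = 7.10e-04). For PD0028_021399, PD0028_064767, and PD0028_040710 no FG or FGD petal array was well above background, and all 3 entered the list through their leaf signal. PD0028_021399 was at 2.62, 2.64, and 2.93 in leaves, at least 276-fold above FG petals and 52.1-fold above FW petals. PD0028_064767 was at 2.78, 2.81, and 2.42 in leaves, at least 265-fold above FG petals and 71.4-fold above FW petals. PD0028_040710 was at least 211-fold above FG petals in leaves. PD0028_132048 and PD0028_147871 also passed the cutoff on the petal arrays. For the other 3 a leaf signal above that of petals was needed for entry, so their leaf folds are a description with no test. As bounds, FW petals were at least 4.56-fold above FGD petals for PD0028_021399 and at least 3.20-fold for PD0028_064767. Both bounds are under the limit of 5-fold, and that of PD0028_040710, 7.75-fold, is over it.

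Besides the 14 probes that were higher in leaves than in FW petals, 18 of the 32 were not called different between these tissues. For 10 of the 32, leaf and FW means were less than 1 apart (log2). A trio with almost the same profile was of this kind. PD0028_036050 was at 1.14, 0.75, and 0.81 in FW petals and at 0.99, 0.82, and 0.97 in FG leaves, with green petals between −2.91 and −1.51. PD0028_077239 and PD0028_183099 had the same shape, with leaf means of 0.91 and 3.12 and FW means of 0.99 and 3.16. Leaves exceeded FG petals by 3.46, 3.46, and 3.29 in the 3 probes (adjusted p of 2.03e-07 or less, limma), and the difference from FW petals was 0.03, −0.08, and −0.05, each with an SE of 0.19 to 0.23.

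The probes lower in FG leaves than in FG petals were a larger set, and many were close to background in leaves. Their median difference was −4.49 (log2), from −2.34 to −9.26, with adjusted p values of 0.0222 or less (limma). All 53 were well above background on all 3 FG petal arrays, 8 were so on all 3 leaf arrays, and 33 on none. All 53 were also called lower in FG leaves than in FW petals. The choice of the probes fixed this fold, because FW petals had to lie more than 5-fold above FG petals. PD0028_085970 was at −5.69, −4.50, and −3.73 in leaves against 4.43, 4.75, and 4.69 in FG petals, a difference of −9.26 ± 0.42 (SE, adjusted p = 8.37e-09, limma), and it was above background on 2 of the 3 leaf arrays. Its leaf values spread over 2 log2 units, and all were far below the petals.

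For 4 further probes named for their large fitted reduction in leaves no leaf array was well above background. The adjusted p values in this paragraph are for the fitted differences of the levels as measured and do not test the bounds. In leaves PD0028_085868 was at least 133-fold below FG petals (adjusted p = 3.60e-11, limma) and PD0028_085871 at least 109-fold (8.04e-10). Both had FW means of 5.39 and FG petal means of 2.47 and 2.17. PD0028_107946 was at least 272-fold lower in leaves (1.00e-08) and PD0028_120233 at least 357-fold lower (1.06e-09). PD0028_084589, at least 147-fold (1.56e-09), and PD0028_076032, at least 69.6-fold (1.83e-09), completed the brightest probes. All 5 of the brightest probes in FW petals were thus lower in leaves than in green petals. In these 5 probes the order was white petal, green petal, then leaf, with white above green petals fixed by the choice of the probes. The 5 were picked by their FW level. Of all probes, 7.06% were called lower in leaves than in FG petals. Of the 16 list probes with an FW level over 5, 15 had this call. Leaves gave only a bound for 11 of the 16, against 1.61% of the 3407 tested probes with such an FW level.

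Probes with large and small petal differences were found in each class. Of the 15 probes more than 16-fold above the higher green mean by the levels as measured, 4 were higher in leaves than FG petals, 7 were lower, and 4 were neither. Over all probes, 6.82% were higher and 7.06% lower. Among the 4 higher ones, PD0028_040710 and PD0028_021399 entered through their leaf signal, so their call is a description with no test. As bounds, their FW petals were at least 7.75-fold and 4.56-fold above FGD petals, not 16-fold. Among the 8 largest, PD0028_096111 was at −3.17, −3.17, and −2.85 in leaves, 0.23 ± 0.31 above FG petals (adjusted p = 0.509, limma). PD0028_151502 had a leaf mean of −2.68 ± 0.29 (SD, n = 3), a difference of −0.45 ± 0.34 (adjusted p = 0.242). In these 2 probes the leaf values overlapped the green petal values, and the white petals stood alone. PD0028_091616 was not well above background in leaves and is in the same class, with 1 of 3 FG petal arrays above background. PD0028_040636 and PD0028_124490 were called lower in leaves (adjusted p of 4.16e-09 and 2.29e-11, limma on the levels as measured), and neither was above background there. The bound left 2.76-fold for PD0028_040636, under the limit of the call, and 24.3-fold for PD0028_124490. With the floor PD0028_124490 was 2.96-fold lower in leaves, also under the limit. PD0028_040636 was 1.66-fold lower with normexp and showed no difference with the floor.

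The 48 probes that met neither condition ranged from −2.21 to 2.31 (log2) between leaf and FG petal. Of these, 31 were called lower in leaves than in FW petals and 17 were not. With no limit on the fold, 46 of the 133 probes were higher in leaves than FG petals by the adjusted p alone (all probes, 33.8%), 73 were lower (43.1%), and 14 passed in neither direction. Higher than FW petals at any fold were 23 (33.6%). As shares of the 133 probes these counts are 34.6%, 54.9%, and 17.3%.

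Probes near a limit were less firm. PD0028_029829 was called lower in leaves by 2.91 ± 1.01 (adjusted p = 0.0222, limma), and it lost the call without FG petal 2 (adjusted p = 0.0610) or FG leaf 1 (0.0770). In leaves it was not above background, and its bound was 3.25-fold. It was 1.57-fold lower with normexp (adjusted p = 0.425, limma) and showed no difference with the floor. PD0028_008773 was 2.21 ± 0.78 higher in leaves (4.64-fold, adjusted p = 0.0255), short of 5-fold, and passed it without FG petal 2 or FG leaf 3. PD0028_040553 was 5.08-fold lower in leaves and fell under 5-fold without FG petal 3. PD0028_021877 was 5.75-fold lower and fell under 5-fold without FG leaf 2. With the slide as a block, a fit that links leaves and FG petals only indirectly, the fold was 2.89 for PD0028_040553 and 4.95 for PD0028_021877. With normexp the folds were 3.95 and 4.31. PD0028_101096 was called 6.48-fold lower in leaves, but it was at 4.20-fold with the slide as a block, at 1.95-fold with normexp, and showed no difference with the floor. PD0028_115607 was called 22.4-fold lower, and 4.61-fold with the floor. PD0028_038855 was at least 71.8-fold lower. PD0028_081451, 3.00-fold lower, was not called. PD0028_114252 was at background on both sides, and no fold is given.

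Some probes had almost the same profile over the arrays. With each probe centered on its own mean over the 12 arrays, 19 of the 133 fell into 6 groups in which every pair differed by a root mean square of at most 0.35 (log2). The closest group was the trio with equal white petal and leaf levels, in which the largest pairwise value was 0.12. One more trio was PD0028_040883, PD0028_048666, and PD0028_124490. Their FW means were 5.06, 4.42, and 5.16, their FG petal means 0.16, −0.36, and 0.01, and their leaf means −6.80, −6.86, and −6.67, not well above background. Another trio, PD0028_035397, PD0028_104420, and PD0028_119090, had leaf means between the green and white petal means. In this trio leaves exceeded FG petals by 4.12-fold, 4.16-fold, and 3.66-fold. Which probes of such a group represent the same gene is not known here.

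None of the 133 probes was among the 31 probes that the study pairs with Chl metabolism, which cover biosynthesis, the cycle between Chl *a* and Chl *b*, and degradation. Of these, 25 passed the signal cutoff, and in 5 of them the FW mean exceeded both green means. The largest such excess was 1.16 on the log2 scale, below the limit of 2.32.

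The study lists 11 probes of transcription factors as higher in FW petals, and each missed at least 1 limit of the present list. Of them 8 had a mean signal under 100, and 4 missed that limit alone. *MYB113-like* is represented by several of these probes. PD0028_044920 was at 1.98, 1.27, and 1.23 in FW petals, at −3.27, −2.73, and −3.94 in FG petals, and at −2.39, −2.17, and −2.22 in FGD petals. PD0028_148815 was at 1.31, 0.70, and 0.67 in FW petals, with means of −4.75 in FG petals and −3.28 in FGD petals. In both probes the white petals were far above the green ones, and they were left out because FGD petals were above FG petals by 1.05 and 1.48. In leaves, neither was called different from FG petals (differences of 0.24, adjusted p = 0.456, and 0.57, adjusted p = 0.153, limma).

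The *MYB113-like* probe that was followed by RT-qPCR, PD0028_044537, was at −0.74, −1.58, and −1.56 in FW petals, with no green petal array well above background. Its mean signal of 36.2 kept it out of the list. The *OFP6* probe, PD0028_011900, was at −0.72, −1.14, and −0.97 in FW petals, with no green petal or leaf array well above background, with a mean signal of 43.7. These are the transcripts whose primers are printed above. The study followed *OFP6* by RT-qPCR as well. Across other white- and green-flowered cultivars it reported *MYB113-like* expression in white petals alone, and no correlation of *OFP6* with Chl content. RT-qPCR values were not analysed here.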

How the data were processed

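Each of the 12 RNA samples was hybridized alone to 1 array in a single color. The authors deposited the scanner output, whose intensity values had been corrected for background by the Feature Extraction software. The labels name version 10.7.1.1 of that software, and other sources name other versions. A log2 table of these arrays was deposited as well, with each probe centered on a value that is not stated. Group differences in this table, which chose the probes, equalled those from the intensities within 3.2e-05, so its scale is log2 and its direction that of the signal.

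Levels are log2 intensities minus that array's own 75th percentile, taken over the probes without control spots. The 4854 control spots were left out. Outlier spots, 7 to 37 on an array, were treated as missing in the tests and kept in the printed levels. Groups were compared with limma 3.58.1 in R 4.3.3, in 1 fit of the 12 arrays with Benjamini-Hochberg adjustment over 70270 probes. A call is a fold over 5 and an adjusted p under 0.05. The script was tested on simulated data.

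The probes and lists were chosen with earlier results of these data known. Named probes are those with the largest petal difference (8), the brightest in FW petals (5), the most changed in leaves (5 in each direction), those next to each limit (3 on each side), those with the largest SD in FW petals (3), and the probes the study lists as higher in FW petals. Tables were handled with pandas 2.3.3 in Python 3.11.15.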

Additional observations from a re-analysis of the deposited data

Results flagged for a closer look

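Signals below the cutoff were not part of the comparisons. Under a mean signal of 100, 227 further probes met the fold limits and the limit on the green petals, and in FW petals 182 of these exceeded background clearly on all 3 arrays. Their mean signals ran from 4.41 to 99.3. For 90 of the 227 no green petal array was well above background, and 109 passed the fold limit when the bound replaced such levels. Among the 227 are 4 probes that the study lists as higher in FW petals, 1 of *MYB113-like*, 1 of *OFP6*, 1 of another OVATE family protein, and 1 named auxin response factor 1.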

How the results depend on the processing

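The number of probes moved with the limits that define the list: 360 with no signal cutoff, 221 with a fold limit of 4, 57 with a fold limit of 8, and 222 with no limit on FG and FGD petals. It was 120 to 158 when each array was left out in turn. Of the 133 probes, 69 also met the limits after normexp background correction (95 in all) and 85 with a signal floor of 100 (126 in all). With the bound for green groups not above background, 127 of the 133 met the limits and 6 did not. With the signal cutoff taken over the petal arrays, an alternative added after seeing the data, the list had 131 probes, of which 21 were higher in leaves than FG petals, against 32, and 3 higher than FW petals, against 14, with a median of −1.63.

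With the list as chosen, the calls in leaves that moved by over 1.5 times at the same fold limit were those of lower probes. Lower than FG petals were 24 of the 133 with normexp and 18 with the floor, against 53, and lower than FGD petals 22 (all probes, 4.46%) and 18 (4.31%), against 51. The median difference between leaves and FG petals was −0.54 with normexp and 0.00 with the floor. Higher than FW petals at any fold were 23 probes. Leaving out each array gave 32 to 33 probes higher and 50 to 59 lower than FG petals, 33 in each case higher and 48 to 51 lower than FGD petals, and 13 to 14 higher and 84 to 85 lower than FW petals. The median ran from −1.33 to −0.95. PD0028_114252 was reversed in petals within slide 1 (−0.31) and without FW petal 2 (−0.15), and it reached 4.72 without FW petal 1. The cause of these shifts was not tested, except that the floor sets dim signals equal by construction.

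No sign of pairing by replicate number was seen: 5 of 18 same-numbered pairs of arrays had a correlation of deviations over 0.1, and 10 of 36 other pairs. The correlations ran from −0.35 to 0.38 in same-numbered pairs and from −0.42 to 0.43 in the others. With few arrays for each group, and some groups split over slides, these counts cannot exclude shared plants. With the replicate block the counts of higher and lower probes were 32 and 53 against FG petals, 33 and 51 against FGD petals, and 14 and 84 against FW petals.

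FG petals and FG leaves share no slide, and with 3 arrays for each group small differences cannot be resolved. The gene of each probe is not known here, so the counts are of probes and not of genes.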
